A study of Mus musculus with 7 samples.

Results

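The metabotropic glutamate receptor genes described here are Grm2, Grm3, Grm4, Grm5, Grm7 and Grm8, taken by symbol from a table of 35976 gene symbols; all 6 were present. They were measured by RNA-seq in 7 libraries of cells isolated from the amygdala of male C57BL/6J mice. The 3 sgNr2f2 libraries came from mice given an adeno-associated virus (AAV) with a guide RNA against Nr2f2, and the 4 sgRosa libraries from mice given a guide against the Rosa locus as control. In both groups Cas9 was driven by the neuron-directed hSyn promoter, the virus had more than 2 weeks to express, and the mice were then restrained in a tube on 7 days, fear-conditioned on 1 day and taken through extinction on 3 days. Papain-dissociated tissue was passed through a magnetic adult neuron isolation kit, and each library was made from 5 ng of total RNA. No unstressed mice are among the samples. The labels do not say whether a library holds 1 animal or several, so each p-value reflects library-to-library spread alone, which may be partly technical.

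Metabotropic glutamate receptors are G-protein-coupled receptors that tune synapses more slowly than the glutamate-gated channels do. Group I receptors, here Grm5, couple to Gq and sit mainly around the postsynaptic density, where Homer and Shank proteins anchor them. Group II (Grm2 and Grm3) and group III (Grm4, Grm7 and Grm8) couple to Gi/o, lower cyclic AMP and mostly restrain transmitter release from the presynaptic terminal. Grm2, Grm4, Grm7 and Grm8 are mainly neuronal in brain, whereas Grm3 is also made by glia, in particular astrocytes, and its product responds to the peptide transmitter NAAG as well as to glutamate. In the amygdala these receptors are known for their part in fear learning and extinction.

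The neuron label was checked against marker genes. The guide's target, Nr2f2, had 196, 214 and 191 counts in sgNr2f2 replicates 1 to 3, against 422, 305, 166 and 96 in sgRosa replicates 1 to 4. As CPM (counts scaled to library size) these were 11.9, 12 and 11.6 in sgNr2f2, against 19.8, 16.5, 11.3 and 13.1 in sgRosa, and the groups overlapped (log2 fold change -0.36, SE 0.37, edgeR adjusted p = 0.905). Total counts ran from 6266897 in sgRosa replicate 4 to 20928677 in sgNr2f2 replicate 3. All 10 pan-neuron markers had counts in every library, but their sum took only 0.0488 to 0.0568% of counts in sgNr2f2 and 0.043 to 0.222% in sgRosa. The 10 oligodendrocyte markers took 17.9 to 32.2% in sgNr2f2 and 2.69 to 29.4% in sgRosa, and the 10 astrocyte markers 0.113 to 0.142% and 0.0613 to 0.208%. The groups overlapped in all 10 marker lists. sgRosa replicate 4 stood apart, with the highest neuron share, the lowest oligodendrocyte share, and 3.7% of counts in erythroid genes. Defining markers at 0 in at least 1 library included Neurod2, Neurod6, Dlx1, Dlx2, Dlx6, Cx3cr1 and P2ry12. In bulk samples such as these, fewer cells of a type and less RNA per cell cannot be told apart.

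The genes differ widely in size. By the GENCODE M21 annotation of mm10, Grm2 spans 12988 bases of chromosome 9 (106643095 to 106656082, minus strand). Grm3 spans 239630 bases of chromosome 5 (9485541 to 9725170, minus strand), and Grm4 spans 99017 bases of chromosome 17 (27422387 to 27521403, minus strand). Grm5 spans 550740 bases of chromosome 7 (87584168 to 88134907, plus strand). Grm7 spans 921650 bases (110645581 to 111567230, plus strand) and Grm8 860060 bases (27275119 to 28135178, minus strand), both on chromosome 6. Their merged exons are far shorter, from 3049 bases in Grm3 to 10247 bases in Grm5. Exons of Grm2 overlap the opposite-strand gene Gm28111, those of Grm7 the opposite-strand gene Gm20387, and those of Grm8 Mir592. These neighbours had 3, 48 and 0 counts over all 7 libraries, against 493 for Grm2, 1130 for Grm7 and 286 for Grm8.

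Grm2 and Grm3 are the closest relatives among these genes. Any link between upstream sequence and their levels was not tested. The 250 bases before the start of each are shown. They come from RefSeq on GRCm38.p6 and are written 5′ to 3′ along the gene's own strand, with GC boxes (GGGCGG or its reverse complement CCGCCC) in capitals. The Grm2 window is chr9:106656110-106656359 and the Grm3 window chr5:9725353-9725602, both on the minus strand.
Grm2: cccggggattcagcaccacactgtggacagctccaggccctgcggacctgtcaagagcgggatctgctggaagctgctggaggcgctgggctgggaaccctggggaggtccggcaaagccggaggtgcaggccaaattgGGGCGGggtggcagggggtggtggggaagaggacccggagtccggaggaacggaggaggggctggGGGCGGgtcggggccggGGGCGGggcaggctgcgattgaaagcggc
Grm3: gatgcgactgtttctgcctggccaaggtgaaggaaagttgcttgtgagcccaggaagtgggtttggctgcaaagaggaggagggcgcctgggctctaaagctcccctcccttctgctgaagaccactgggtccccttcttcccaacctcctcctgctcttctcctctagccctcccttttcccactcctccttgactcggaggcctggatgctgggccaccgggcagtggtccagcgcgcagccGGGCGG
The Grm2 window held 3 GC boxes and 16 CpG pairs at 71.2% G+C, the Grm3 window 1 box and 8 CpG pairs at 62.4%. Over all 32851 RefSeq windows of this length 32.7% held a GC box, the median G+C was 52.4% and the median number of CpG pairs 6. The nuclear receptor half-site AGGTCA, searched on both strands, was in none of the 7 windows that RefSeq gives for Grm2, Grm3, Grm7 and Grm8, and was in 14.0% of all windows. Windows for Grm4 and Grm5 were not used here.

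Levels of different genes were compared per length, as RPKM, which is CPM per kilobase of merged exon. Grm3 was the most abundant of the 6 in both groups, at 11.6 ± 8.41 RPKM in sgNr2f2 and 7.41 ± 5.03 RPKM in sgRosa (SD, n = 3 and 4). Grm5 came next, at 2.15 ± 0.207 RPKM in sgNr2f2 and 4.90 ± 2.78 RPKM in sgRosa. Grm7 lay at 1.26 ± 0.551 and 1.91 ± 0.850 RPKM in sgNr2f2 and sgRosa, and Grm4 at 1.09 ± 0.769 and 2.15 ± 2.55 RPKM. Grm2 lay at 0.405 ± 0.334 RPKM in sgNr2f2 and 1.20 ± 0.706 RPKM in sgRosa, and Grm8 was lowest at 0.185 ± 0.0436 and 0.332 ± 0.219 RPKM. Within sgNr2f2 the libraries of Grm3 and Grm5 did not overlap, while those of Grm5 and Grm7 did not either. Grm7, Grm4 and Grm2 overlapped with their neighbours in the order, as did Grm2 and Grm8. Within sgRosa every pair of neighbours overlapped except Grm2 and Grm8, whose libraries ran from 0.639 to 2.22 RPKM and from 0.109 to 0.523 RPKM.

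The makeup of the family differed from library to library. Grm3 made up 73.7, 47.9 and 71.6% of the 6 genes' summed RPKM in sgNr2f2 replicates 1 to 3, against 26.8, 73.2, 56.3 and 12.2% in sgRosa replicates 1 to 4. It ranked first in 5 of 7 libraries. Grm5 ranked first in sgRosa replicates 1 and 4, at 34.9 and 41.2% of the sum. Grm4 reached 30.7% in sgRosa replicate 4 and lay between 3.71 and 6.99% in the other 6 libraries. Without sgRosa replicate 4 the mean of Grm4 in sgRosa was 0.876 RPKM, which moved it below Grm7 and Grm2 in that group. With the longest coding transcript in place of merged exons Grm8 came above Grm2 in sgNr2f2 (0.475 and 0.420 RPKM), and the other positions held in both groups.

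**Figure D1:**
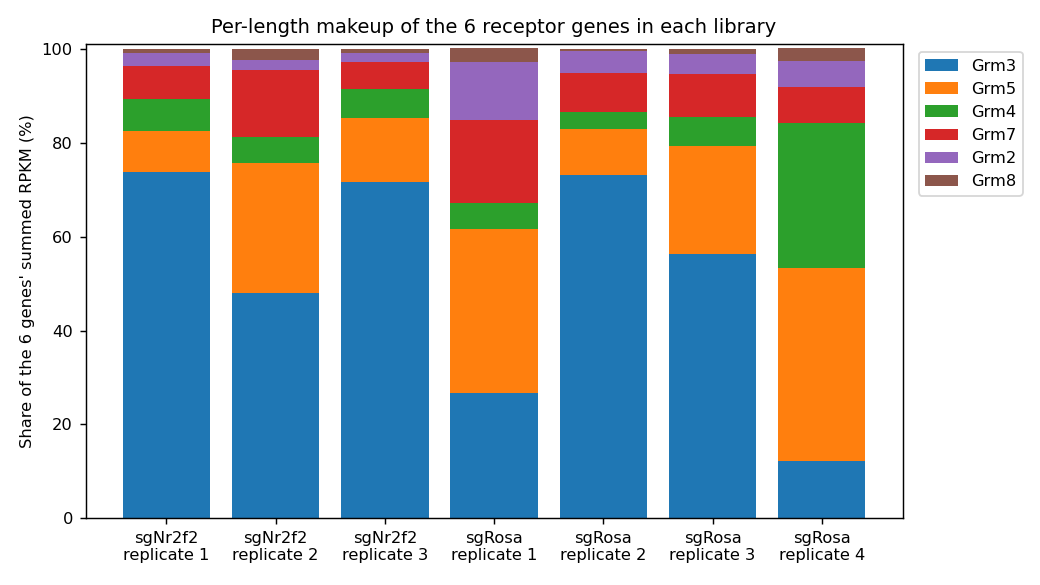
Share of the summed RPKM of the 6 receptor genes (vertical axis, %) taken by each gene (colours) in each of the 7 libraries (horizontal axis). Grm3 fills 73.7, 47.9 and 71.6% of the bar in the sgNr2f2 libraries and 12.2 to 73.2% in the sgRosa libraries, and Grm4 stands out at 30.7% in sgRosa replicate 4.

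The comparison of sgNr2f2 with sgRosa asks whether transcripts of these receptors differ when Nr2f2 is targeted in neurons of stressed mice. None of the 6 passed: all were tested with 14412 genes in edgeR's quasi-likelihood fit, and 0 of 6 reached an adjusted p under 0.05, as did 0.0% of all genes. Grm2 and Grm5 had an unadjusted p under 0.05 on the lower side, where 2.82% of all genes were, and no receptor gene did on the higher side, where 2.18% were. DESeq2 called 0 of 6 and 0.0293% of all genes, with adjusted p from 0.734 to 0.974 for the 6. With quality weights, limma-voom called 0 of 6 and 0.0% of all genes, with adjusted p from 0.309 to 0.992 for the 6. Of the 6 log2 fold changes 5 were below 0, where 56.2% of all genes lay, and that of Grm3 was above. The groups' libraries overlapped for each of the 6 in CPM, while 3.9% of genes lay wholly lower and 4.41% wholly higher. Grm2 and Grm5 had the most negative values, Grm7 and Grm8 smaller ones, and the signs of Grm3 and Grm4 each turned when 1 library was left out.

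**Figure D2:**
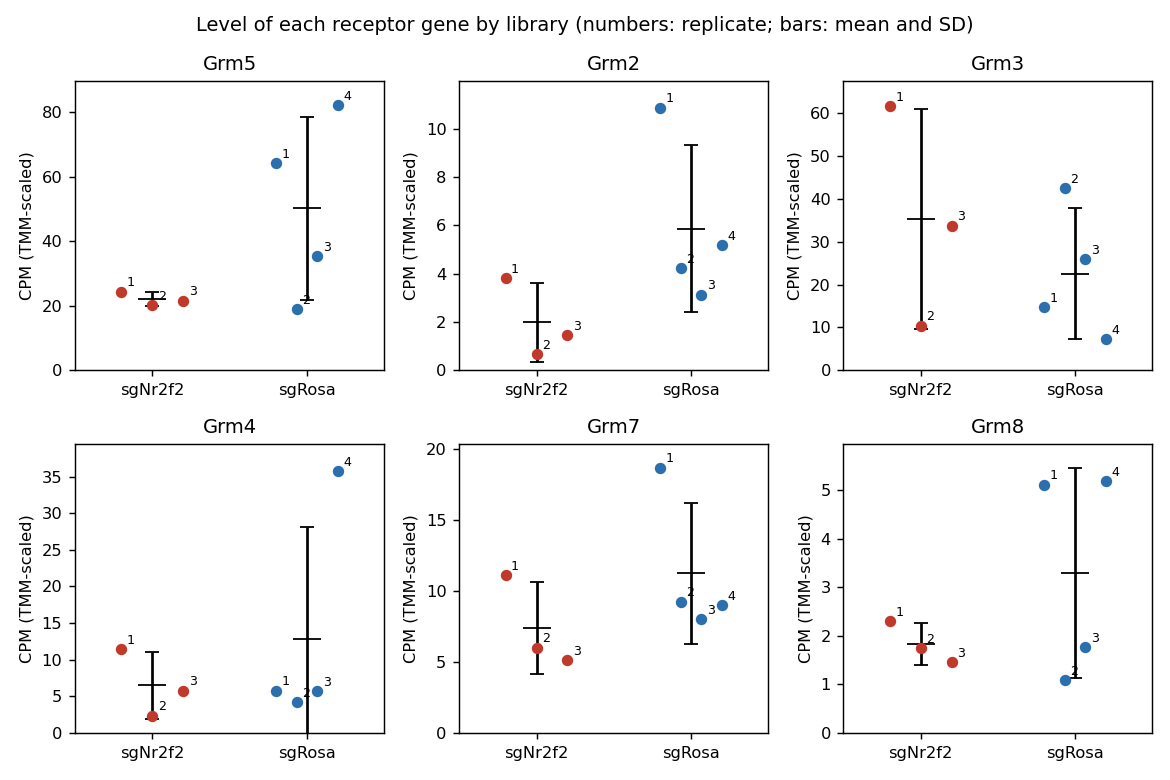
CPM on TMM-scaled library sizes (vertical axes) of each receptor gene, with 1 point per library, its replicate number beside it, and the mean and SD as bars (a bar that would pass below 0 is clipped there). The 3 sgNr2f2 points of Grm5 sit between 20.2 and 24.4 CPM, the sgRosa points between 19.0 and 82.3 CPM, and Grm4 has a single high point of 35.7 CPM in sgRosa replicate 4.

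Grm5, the group I receptor of the postsynaptic membrane, had 24.4, 20.2 and 21.6 CPM in sgNr2f2 replicates 1 to 3, against 64.3, 19.0, 35.4 and 82.3 CPM in sgRosa replicates 1 to 4. The sgNr2f2 libraries were close to each other and below every sgRosa library but replicate 2. Means were 22.1 ± 2.12 CPM in sgNr2f2 and 50.3 ± 28.4 CPM in sgRosa (SD, n = 3 and 4). The log2 fold change was -1.19 (SE 0.52, 95% confidence interval -2.34 to -0.03), with an edgeR adjusted p of 0.868, and the exact two-sided permutation test gave p = 0.2. Without sgRosa replicate 4 it was -0.85 (SE 0.40, edgeR adjusted p = 0.474), and with limma-voom it was -0.46 (SE 0.35).

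Grm2, the group II autoreceptor of excitatory terminals, had 63, 12 and 24 counts in sgNr2f2 replicates 1 to 3, against 232, 78, 46 and 38 counts in sgRosa replicates 1 to 4. As levels these were 3.82, 0.673 and 1.45 CPM in sgNr2f2, against 10.9, 4.22, 3.13 and 5.18 CPM in sgRosa. Only sgNr2f2 replicate 1 reached into the sgRosa range, above sgRosa replicate 3. Means were 1.98 ± 1.64 CPM in sgNr2f2 and 5.85 ± 3.45 CPM in sgRosa (SD, n = 3 and 4). The log2 fold change of -1.56 (SE 0.70, 95% confidence interval -3.13 to -0.0022) was the most negative of the 6 and had an edgeR adjusted p of 0.868 and an exact permutation p of 0.0857. Leaving out sgNr2f2 replicate 1 gave -2.48 and leaving out sgRosa replicate 1 gave -1.08, and the value was below 0 in all 18 alternative fits.

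Grm3, the group II receptor shared by neurons and glia, had 61.6, 10.4 and 33.8 CPM in sgNr2f2 replicates 1 to 3, against 14.7, 42.5, 25.9 and 7.22 CPM in sgRosa replicates 1 to 4. Its highest and lowest library differed 8.53-fold, and both groups held high and low libraries. Means were 35.3 ± 25.6 CPM in sgNr2f2 and 22.6 ± 15.4 CPM in sgRosa (SD, n = 3 and 4), a log2 fold change of 0.64 (SE 0.68; exact permutation p = 0.543; edgeR adjusted p = 0.908). The value was above 0 in 17 of 18 alternative fits, among them 1.17 without sgRosa replicate 2 and 0.35 without sgRosa replicate 4. Leaving out sgNr2f2 replicate 1, its highest library, gave -0.04.

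Grm4, a presynaptic group III receptor known for its abundance in cerebellar granule cells, had 11.5, 2.35 and 5.75 CPM in sgNr2f2 replicates 1 to 3, against 5.77, 4.22, 5.71 and 35.7 CPM in sgRosa replicates 1 to 4. The single high library held 262 of its 873 counts although it was the shallowest. Means were 6.52 ± 4.595 CPM in sgNr2f2 and 12.9 ± 15.3 CPM in sgRosa (SD, n = 3 and 4). The log2 fold change was -0.97 (SE 0.84, edgeR adjusted p = 0.893, exact permutation p = 0.657) and turned to 0.31 (SE 0.53) without sgRosa replicate 4. The mean of the other 3 sgRosa libraries was 5.23 ± 0.876 CPM.

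Grm7, a low-affinity group III receptor of the active zone, had 11.1, 6.00 and 5.15 CPM in sgNr2f2 replicates 1 to 3, against 18.7, 9.26, 8.03 and 8.99 CPM in sgRosa replicates 1 to 4. sgNr2f2 replicate 1 lay above all sgRosa libraries but replicate 1, and the other 2 sgNr2f2 libraries lay below all 4. The log2 fold change was -0.60 (SE 0.49, edgeR adjusted p = 0.886, exact permutation p = 0.229), and -0.24 without sgRosa replicate 1. Grm8, another presynaptic group III receptor, had 2.30, 1.74 and 1.45 CPM in sgNr2f2 replicates 1 to 3, against 5.11, 1.08, 1.77 and 5.18 CPM in sgRosa replicates 1 to 4. Its sgNr2f2 libraries lay within the sgRosa range, whose upper end came from replicates 1 and 4. The log2 fold change was -0.83 (SE 0.68, edgeR adjusted p = 0.889, exact permutation p = 0.371), and -0.02 (SE 0.55) with limma-voom. With 20 to 109 counts per library, Grm8 had the fewest counts of the 6.

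**Figure D3:**
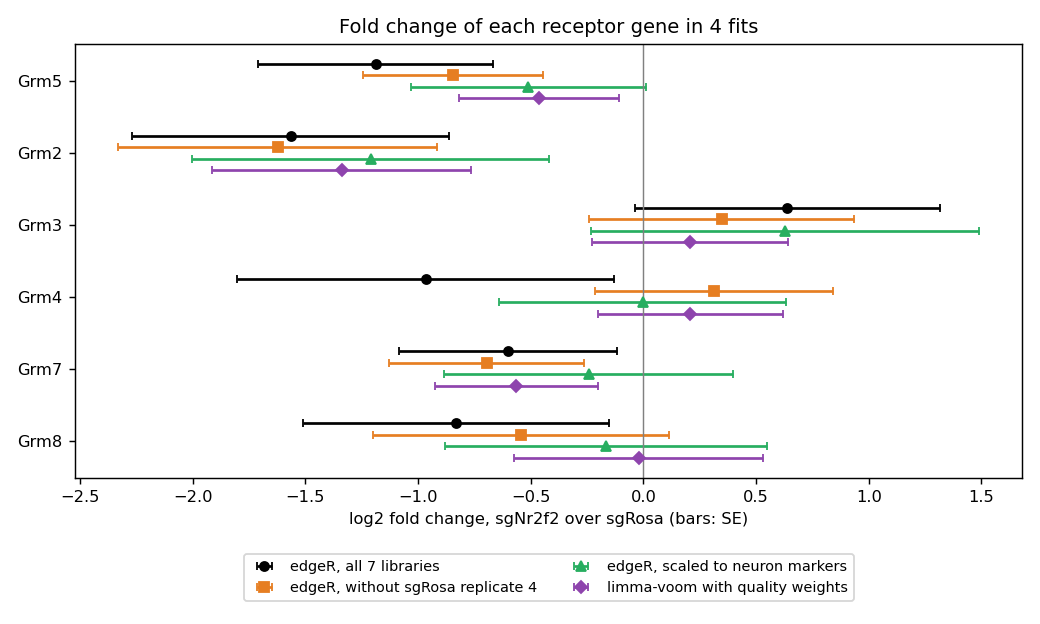
Log2 fold change of sgNr2f2 over sgRosa (horizontal axis, bars are SE) for each receptor gene in 4 fits (colours and shapes). Grm2 stays between -1.62 and -1.21 in all 4. Grm4 goes from -0.97 with all libraries to 0.31 without sgRosa replicate 4. Scaled to neuron markers Grm4 is at 0.00, where the median of all genes is 0.28.

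Because neuron and glia content differed between libraries, each gene was also set against marker counts of the same library. Per 1000 counts of the 10 pan-neuron markers, Grm5 had 39.1, 40.0 and 34.9 counts in sgNr2f2 replicates 1 to 3, against 84.2, 41.1, 47.9 and 43.3 in sgRosa replicates 1 to 4. These groups did not overlap, as was the case on the lower side for 0.819% of all genes on this scale, against 3.9% in CPM. Fewer genes lie lower on this scale. In edgeR 30.7% of all genes were below 0 when scaled to neuron markers, against 56.2% with TMM factors. The Grm5 gap between 40.0 and 41.1 was also small. The mean log2 ratio was lower by 0.45 in sgNr2f2 (difference -0.45, exact permutation p = 0.114), and by less without sgRosa replicate 1 (difference -0.21). Grm2 had 6.13, 1.33 and 2.35 counts per 1000 neuron marker counts in sgNr2f2, against 14.2, 9.17, 4.23 and 2.73 in sgRosa (difference in mean log2 ratio -1.20, exact permutation p = 0.229). For Grm3 the difference was 1.12 (exact permutation p = 0.457), and 0.28 without sgRosa replicate 4. For Grm4, Grm7 and Grm8 these differences were -0.11, -0.06 and -0.03, each with an exact permutation p of 0.943. They are not set against all genes. The median log2 fold change of all genes in edgeR moved from -0.11 to 0.28 when scaled to neuron markers. Grm4 in sgRosa replicate 4 had 18.8 counts per 1000 neuron marker counts, close to the 18.4 of sgNr2f2 replicate 1. None of the 12 tests against neuron or astrocyte markers passed (smallest adjusted p = 0.9 over the 12).

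In edgeR fits that used the neuron marker sum as library size, the log2 fold changes of Grm5, Grm7, Grm8 and Grm4 were -0.51, -0.24, -0.17 and 0.00, where the median of all genes was 0.28. That of Grm2 was -1.21 and that of Grm3 0.63. With all libraries and TMM factors Grm4, Grm5, Grm7 and Grm8 had negative log2 fold changes, none of them called. That of Grm4 turned to 0.31 without sgRosa replicate 4. The part of neuron content in these negative values was not tested beyond the fits above.

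Grm3 was set against glial markers in the same way. Per 1000 astrocyte marker counts it had 39.5, 9.90 and 19.2 counts in sgNr2f2 replicates 1 to 3, against 33.3, 23.2, 10.4 and 5.92 in sgRosa replicates 1 to 4 (difference in mean log2 ratio 0.40, exact permutation p = 0.714). The 4 libraries with the most Grm3, sgNr2f2 replicates 1 and 3 and sgRosa replicates 2 and 3, were also the 4 with the largest oligodendrocyte shares, from 29.0 to 32.2% of counts. The other 3 libraries had 17.9% or less. In log2 CPM, the astrocyte sum was above its mean over the 7 libraries in the same 4 and below it in the other 3. Its shares of counts did not split this way. sgRosa replicate 4 had 0.143%, above the 0.142% and 0.139% of sgNr2f2 replicates 1 and 3. Of the 10 marker sums, the ratio to oligodendrocyte markers varied least for Grm3, 5.03-fold between the highest and lowest library, followed by astrocyte markers at 6.67-fold. Against pan-neuron markers Grm3 varied 26.0-fold. For Grm4 and Grm5 it was pan-neuron markers that gave the smallest range, 4.03-fold and 2.41-fold, and for Grm7 and Grm8 oligodendrocyte precursor markers, 2.69-fold and 2.43-fold. For Grm2 it was excitatory neuron markers, at 5.02-fold. The next smallest ranges were 4.52-fold for Grm4 (excitatory neuron markers) and 5.48-fold for Grm2 (oligodendrocyte precursor markers). With inhibitory neuron markers, next for the others, they were 2.44-fold for Grm5, 3.94-fold for Grm7 and 2.78-fold for Grm8. These ranges, chosen after seeing the data, are descriptions over 7 libraries, and the libraries share their depth and marker sums across all 6 genes.

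**Figure D4:**
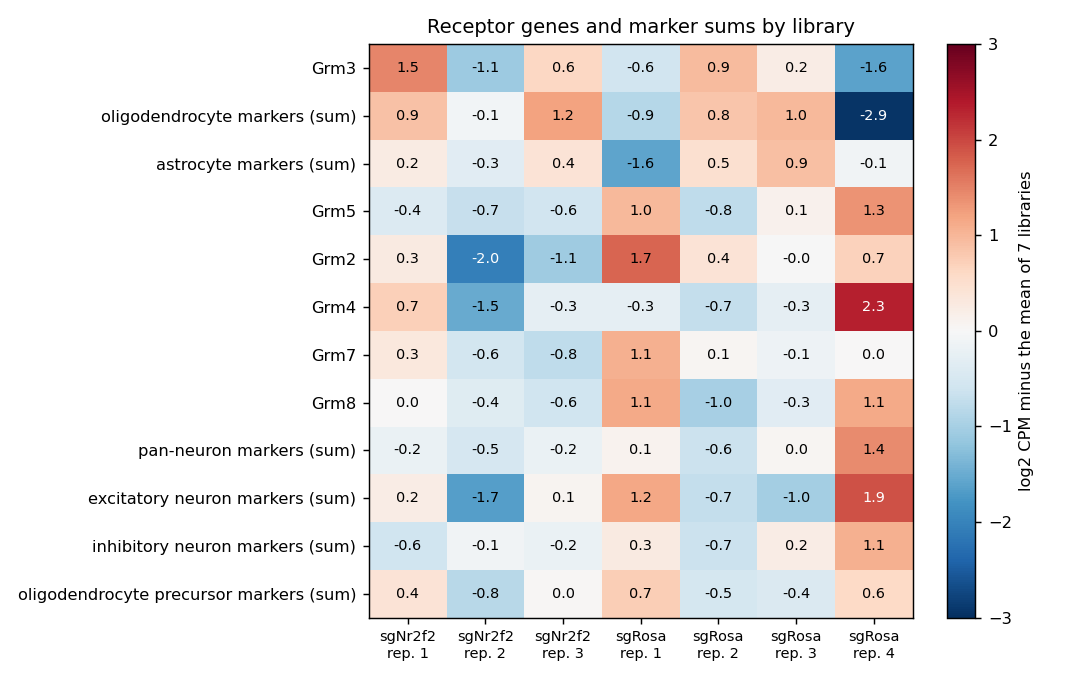
Log2 CPM minus the mean over the 7 libraries (colour and printed value) for the 6 receptor genes and for summed marker lists (rows) in each library (columns). Grm3, the oligodendrocyte sum and the astrocyte sum are all above their means in sgNr2f2 replicates 1 and 3 and sgRosa replicates 2 and 3, and Grm4, Grm5 and the pan-neuron sum all have their highest value in sgRosa replicate 4.

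Genes with the most similar course over the 7 libraries were ranked by the root mean square difference of centred log2 CPM over at least 9514 genes. For Grm3 they were Phgdh, an enzyme of serine synthesis, at 0.181 log2 units, Smco3 at 0.195 and the sulfatase gene Arsg at 0.197. For Grm5 they were Tmem59l at 0.143, Frrs1l, which encodes an AMPA receptor auxiliary protein, at 0.156 and the granin gene Chgb at 0.159. Grm4 ran with Sez6l2 at 0.247, Gdap1l1 at 0.26 and the anion exchanger gene Slc4a3 at 0.295, all of which had their highest level in sgRosa replicate 4. Grm7 ran with Cep162 at 0.155, Swt1 at 0.236 and Tspan7 at 0.27. Grm8 ran with the sodium channel gene Scn2a1 at 0.202, Cnnm1 at 0.21 and Nell2 at 0.215. Grm2 had no equally close match, with the DNA damage kinase gene Atm at 0.484, Igfbp5 at 0.519 and the activity gene Fos at 0.566. In a search without sgRosa replicate 4, 3 of these 18 genes were again among the 3 closest.

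The receptors' signalling partners showed no called change either. Of 61 partner genes 59 were in the table and 57 were tested, and 0 passed edgeR's adjusted test in either direction. At an unadjusted p under 0.05 there were 0 higher and 1 lower, Trpc5, a cation channel gene of the Gq pathway, at 2.41 ± 1.23 CPM in sgNr2f2 and 8.003 ± 5.86 CPM in sgRosa (SD, n = 3 and 4; edgeR adjusted p = 0.868). Without sgRosa replicate 4 there were 5 higher, where 6.41% of all genes were, and 1 lower, where 4.88% were, and Trpc5 was not among them. The 5, named after their values were seen apart from Shank1, were the postsynaptic scaffold genes Shank1 and Shank2, Ncdn, the G protein subunit gene Gnai2 and the G protein regulator gene Rgs7, and the lower gene was Slc7a11. None of the 57 passed the adjusted test in that fit either. With all 7 libraries the median log2 fold change of the 57 was 0.02, against -0.11 over all genes tested, with 31 above and 26 below 0.

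Of 7 scaffold genes of group I receptors 0 passed the adjusted test. Their signs are therefore descriptions only: 5 had log2 fold changes above 0, while 56.2% of all genes tested were below 0, as was Grm5. The median of the 7 was 0.34, against -0.11 over all genes. Without sgRosa replicate 4 it was 0.69, against -0.03 over all genes. Homer1, whose protein links these receptors to the postsynaptic density, had 16.7, 12.3 and 11.7 CPM in sgNr2f2 replicates 1 to 3, against 10.03, 8.07, 10.8 and 9.68 CPM in sgRosa replicates 1 to 4. Its groups did not overlap, and the log2 fold change was 0.49 (SE 0.37, edgeR adjusted p = 0.874). Shank1, a postsynaptic scaffold gene, had 23.02, 9.47 and 12.5 CPM in sgNr2f2, against 2.39, 3.09, 5.44 and 20.2 CPM in sgRosa. The high sgRosa library was again replicate 4, and the log2 fold change went from 0.97 (SE 0.72) to 2.05 (SE 0.45, edgeR adjusted p = 0.235) without it.

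Among 14 genes of the Gq pathway the median log2 fold change was 0.15. Prkcb, a protein kinase C gene, lay at 86.3 ± 13.0 CPM in sgNr2f2 and 54.1 ± 14.7 CPM in sgRosa (SD, n = 3 and 4; log2 fold change 0.67, SE 0.40, edgeR adjusted p = 0.868), without overlap of the groups. Besides Homer1 and Prkcb, the inositol trisphosphate receptor gene Itpr3, named after its values were seen, was the other partner with groups apart. This made 3 of 57 wholly higher, against 4.41% of all genes.

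Of the Gi/o proteins and effectors 14 were tested, with a median of 0.01. Their leading genes were Adcy2, an adenylyl cyclase gene (log2 fold change -1.50, SE 0.77), and Gnaz, a Gi-family subunit gene (-1.24, SE 0.77). Without sgRosa replicate 4 they were at -0.62 and 0.09. Gnaz had 64.5 CPM in that library and 6.55 to 11.9 CPM in the other 6. Among 6 receptor regulators the same library carried Rgs2 (35.2 CPM) and Arrb1 (41.0 CPM), whose log2 fold changes of -1.47 and -0.71 became -0.22 and -0.12 without it.

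All 4 partners of group III receptors lay below 0, with a median of -0.72, and 2 of 4 did without sgRosa replicate 4 (median -0.23). Elfn2, whose protein binds group III receptors across the synapse, had 60.6 CPM in sgRosa replicate 4 and lay at 10.7 ± 1.19 CPM in sgNr2f2, against 10.4 ± 4.40 CPM in the other 3 sgRosa libraries. For the scaffold gene Grip1 the log2 fold change was -1.11 (SE 0.75), or -0.57 without that library. Elfn2 and Grm4 both had their highest level in sgRosa replicate 4, as did Grm5, Gnaz, Rgs2, Arrb1 and the pan-neuron marker sum.

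Of 8 genes for glutamate supply and clearance the median log2 fold change was 0.04, and -0.25 without sgRosa replicate 4. Slc7a11, the cystine-glutamate exchanger that supplies glutamate outside the synapse, had 0.00, 0.561 and 0.0605 CPM in sgNr2f2 replicates 1 to 3, against 1.45, 1.79, 1.43 and 0.273 CPM in sgRosa replicates 1 to 4. The low sgRosa library overlapped the sgNr2f2 range, and the log2 fold change was -2.54 (SE 1.20, edgeR adjusted p = 0.868). That fold change rests on low counts, with no library above 1.79 CPM. The vesicular transporter gene Slc17a6 lay at 32.8 ± 22.1 CPM in sgNr2f2 and 72.6 ± 46.1 CPM in sgRosa (SD, n = 3 and 4; log2 fold change -1.14, SE 0.61), and the fold change was -0.63 without sgRosa replicate 4. In the NAAG list, which holds the synthesis and breakdown of the peptide that acts on the Grm3 product, 3 of 4 genes lay below 0. The peptidase gene Naalad2 lay at 1.72 ± 1.56 CPM in sgNr2f2 and 3.51 ± 2.35 CPM in sgRosa (SD, n = 3 and 4), and the synthetase gene Rimkla at 5.40 ± 2.54 and 3.67 ± 0.701 CPM. Their log2 fold changes were -1.04 (SE 0.87) and 0.56 (SE 0.48).

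**Figure D5:**
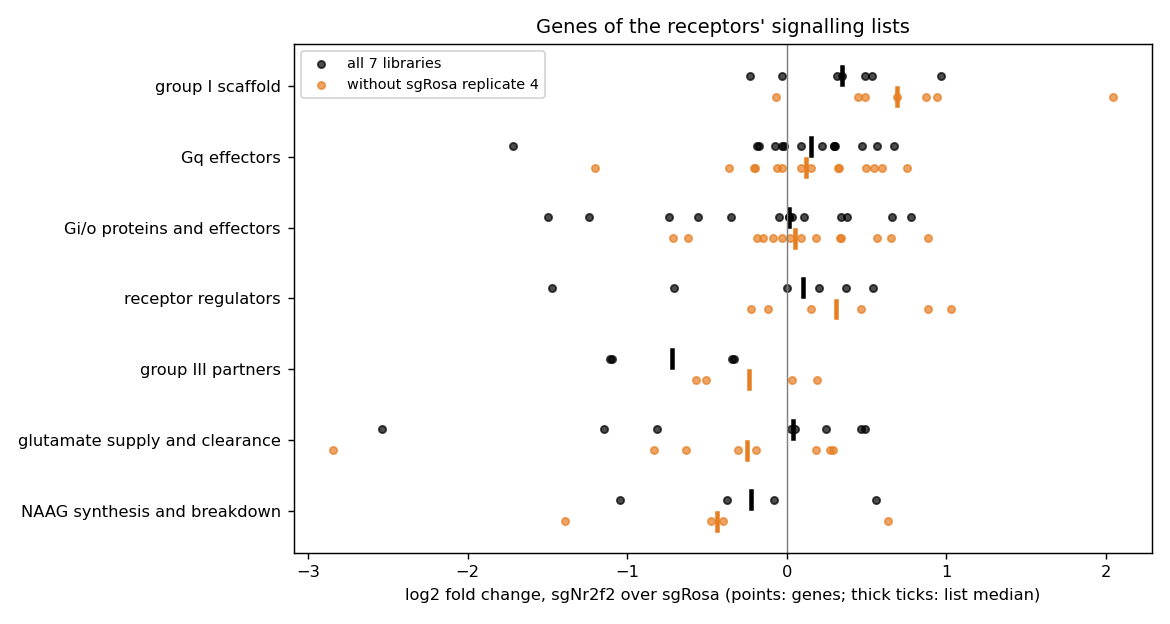
Log2 fold change of sgNr2f2 over sgRosa (horizontal axis) of each tested partner gene (points) in 7 lists (rows), with all 7 libraries in black and without sgRosa replicate 4 in orange, and thick ticks for list medians. The median of the group III partners is -0.72 with all libraries and -0.23 without that library, and that of the group I scaffold genes is 0.34 and 0.69.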

How the data were processed

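Raw counts per gene, the unit of every deposited file, came as 1 table of the series and 1 file per library, and the authors' 7 single files matched the table value for value. The submitters' processing notes list, without their roles, STAR 2.7.5c, featureCounts 2.0.1, edgeR 3.42.4, fastp 0.23.2, MultiQC 1.11, FastQC 0.11.9 and the build mm10. The sources used here do not give the annotation, strand setting or treatment of multi-mapping reads.

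From the counts, edgeR 4.0.16 in R 4.3.3 fitted a quasi-likelihood model of group with TMM factors and filterByExpr (14412 genes kept, the 6 receptor genes among them). Benjamini-Hochberg adjustment ran over all genes tested, with a threshold of 0.05. CPM used TMM-scaled sizes, log2 CPM a prior count of 2, and log2 ratios to marker counts added 0.5 to the gene's count. RPKM divided CPM by merged GENCODE M21 exons. Exact permutation tests were two-sided over 35 splits (smallest possible p 0.0286). Alternatives were DESeq2 1.42.0, limma 3.58.1, other scalings and filters, a replicate block and left-out libraries.

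Genes were named by rule: the receptor genes, Nr2f2, the 2 partner genes of smallest p in each list, and the 3 genes closest to each receptor gene with a mean of at least 5 CPM. A few genes under this rule are left out here. The receptor genes, lists and tests were chosen with earlier results of these data known.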

Additional observations from a re-analysis of the deposited data

Results flagged for a closer look

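Among the 4 sgRosa libraries, 18 sets of values (3 scales for each of the 6 receptor genes) were searched for a library far from the others, and 7 had one. Chance gives about 1 in 20 for normally distributed values, but the values searched were not on a log scale. All 7 were the highest value of their set, and the 18 sets share libraries and denominators. The 7 of 18 therefore cannot be set against that rate. Grm4 stood out in sgRosa replicate 4, at 35.7 CPM and at 18.8 counts per 1000 pan-neuron marker counts. The other 5 concerned sgRosa replicate 1. Grm7 stood out there at 18.7 CPM and at 42.5 counts per 1000 astrocyte marker counts, and Grm2 at 24.7 counts per 1000 astrocyte marker counts. Grm5 stood out at 84.2 and Grm8 at 6.69 counts per 1000 pan-neuron marker counts. That library also had the lowest astrocyte share, 0.0613% of counts. The part of that share in the values per astrocyte marker was not tested.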

How the results depend on the processing

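No receptor gene passed the adjusted threshold in any of its 18 alternative fits. The log2 fold changes of Grm2, Grm5 and Grm7 kept their direction in all 18 and ran from -2.62 to -1.08, from -1.92 to -0.40 and from -1.46 to -0.24. Leaving out 1 library gave -0.0432 to 1.17 for Grm3, -1.66 to 0.31 for Grm4 and -1.11 to -0.53 for Grm8. Grm4 was also above 0 with limma-voom (0.21), with the replicate block (0.0709), and without sgRosa replicate 4 by DESeq2 (0.33) and limma-voom (0.27), and Grm8 in that last fit (0.0484). There is no sgNr2f2 replicate 4, so in the replicate block sgRosa replicate 4 adds nothing to the group difference. The cause of the changed signs was not tested. Fits by DESeq2 and limma-voom without sgRosa replicate 4, and the left-out libraries for marker ratios, were chosen after seeing the data. So were the ranges of ratios to every marker sum, and the partner medians and counts without sgRosa replicate 4. Without 1 library, the difference in mean log2 ratio to neuron markers ran from -0.60 to 0.38 for Grm4, from -0.53 to 0.26 for Grm7 and from -0.18 to 0.32 for Grm8. To astrocyte markers it ran from -0.10 to 0.89 for Grm3 and from -1.37 to 0.0564 for Grm8.

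Over all genes edgeR called 0, and at an unadjusted p under 0.05 there were 314 higher genes and 407 lower ones. These were 422 and 80 when scaled to neuron markers, 14 and 433 when scaled to astrocyte markers, 127 and 621 with library size alone, 245 and 541 with upper-quartile factors, 413 and 1235 without the filter, and 1047 and 1065 with limma-voom. Leaving out sgRosa replicate 4 gave 904 and 688, leaving out sgNr2f2 replicate 2 gave 163 and 471, and no other left-out library moved either by over 1.5 times. DESeq2 called 7, edgeR scaled to astrocyte markers 2, and DESeq2 without sgRosa replicate 4 called 357. The median log2 fold change of all genes was -0.11, against -0.19 with upper-quartile factors, -0.33 with library size alone, 0.28 when scaled to neuron markers and -0.59 when scaled to astrocyte markers. Of the 18 most similar genes 3 were found again without sgRosa replicate 4. The replicate block called 0 genes. Deviations of same-numbered libraries correlated at -0.201, -0.262 and 0.0897, and those of differently numbered libraries at -0.141 to 0.246. Whether replicate numbers pair libraries cannot be told from these values. Depth limits Grm2 and Grm8 most, with 12 to 232 and 20 to 109 counts per library.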
